A study of Angelica pubescens with 12 samples.

Results

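The unigenes described here are those whose best Swiss-Prot match, the text before the species name, belongs to a family of suberin, cuticular wax, fatty acid, Casparian strip or oil body proteins. The name patterns covered 3-ketoacyl-CoA synthases, fatty acyl-CoA reductases, long chain acyl-CoA synthetases, glycerol-3-phosphate acyltransferases, ECERIFERUM proteins, GDSL esterases/lipases, Casparian strip proteins, omega-3 and omega-6 fatty acid desaturases, acyl-[acyl-carrier-protein] desaturases and oleosins. Of 67432 unigenes, which are sequences of a de novo transcript assembly, 163 matched and 159 also had 30 or more counts over the 12 libraries. No unigene matched the ECERIFERUM or the acyl-[acyl-carrier-protein] desaturase pattern. Such genes were not absent: the pathway list used below found 4 stearoyl-ACP (acyl carrier protein) desaturases and 15 CER1 or CER3 unigenes, under names that the patterns missed. The 159 members were 81 GDSL esterases/lipases, 23 acyl-CoA synthetases, 16 acyltransferases, 13 ketoacyl-CoA synthases, 9 desaturases, 7 reductases, 5 Casparian strip proteins and 5 oleosins. The 4 matches left out had 22.8 to 28.3 counts, and the 4 members nearest to the minimum had 30.9 to 38.4 counts. The members carried the names of 74 Swiss-Prot proteins, and the best match of 132 of them was an Arabidopsis thaliana protein.

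The RNA came from roots of Angelica pubescens plants, the source of the Chinese root drug Angelicae Pubescentis Radix, aged 2 years, and the study asked how gene expression differs between producing areas with different environments. Total RNA from roots grown in Chongqing, Gansu, Shanxi and Hubei was sequenced in 12 libraries, 3 from each area. The labels name no cultivar, treatment or genotype. They do not say whether the 3 libraries of an area came from separate plants, so the spread behind each p-value may be technical. Area, plant stock and place of harvest cannot be told apart in this design.

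Suberin is a polyester of fatty acids, glycerol and phenolics that seals the walls of root endodermis and periderm, and in the thickened root of an umbellifer the periderm forms the outer skin. Its acyl chains are made in plastids, desaturated, activated to CoA esters by acyl-CoA synthetases, lengthened by ketoacyl-CoA synthases, and then oxidized, reduced to alcohols or joined to glycerol by acyltransferases before export. GDSL esterases/lipases are secreted hydrolases, some of which link cutin or suberin monomers in the wall. Casparian strip proteins lay out the lignin barrier of the endodermis, and oleosins coat droplets of storage oil.

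Oleosins were highest in Gansu and Chongqing, and the summed level of most other families was highest in Hubei or Shanxi. Levels within a library are given as FPKM, which corrects for unigene length, and FPKM summed over a family are descriptions with no test. Summed over the 5 oleosins, the level was 102 ± 4.2 FPKM in Chongqing, 202 ± 6.6 FPKM in Gansu, 1.84 ± 0.393 FPKM in Shanxi and 4.08 ± 0.984 FPKM in Hubei (SD, n = 3 libraries per area, here and for the other families). The 13 ketoacyl-CoA synthases summed to 57.9 ± 2.31 FPKM in Chongqing, 49.5 ± 1.73 FPKM in Gansu, 111 ± 2.73 FPKM in Shanxi and 144 ± 3.18 FPKM in Hubei. For the 7 reductases the sums were 6.27 ± 0.489 FPKM in Chongqing, 7.2 ± 0.109 FPKM in Gansu, 29.4 ± 3.54 FPKM in Shanxi and 19 ± 1.41 FPKM in Hubei. The 9 omega desaturases gave 32.7 ± 0.797 FPKM in Chongqing, 51.9 ± 5.26 FPKM in Gansu, 55.8 ± 0.678 FPKM in Shanxi and 119 ± 7.43 FPKM in Hubei, so that Hubei stood above the other areas and Chongqing below them. GDSL esterases/lipases summed to 417 ± 19.5 FPKM in Chongqing, 322 ± 11.6 FPKM in Gansu, 637 ± 21.5 FPKM in Shanxi and 607 ± 12.8 FPKM in Hubei. Acyl-CoA synthetases summed to 284 ± 2.31 FPKM in Chongqing, 238 ± 7.27 FPKM in Gansu, 199.5 ± 2.21 FPKM in Shanxi and 224 ± 2.73 FPKM in Hubei. One unigene, TRINITY_DN17641_c0_g1_i2_2, gave 38.3% of the Chongqing sum, with a mean of 109 FPKM in Chongqing and 53.5 FPKM in Hubei. All members together gave 1029 ± 28 FPKM in Chongqing, 986 ± 7.39 FPKM in Gansu, 1149.6 ± 23 FPKM in Shanxi and 1271 ± 11.6 FPKM in Hubei. They took 0.152% to 0.210% of a library's counts.

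**Figure D1:**
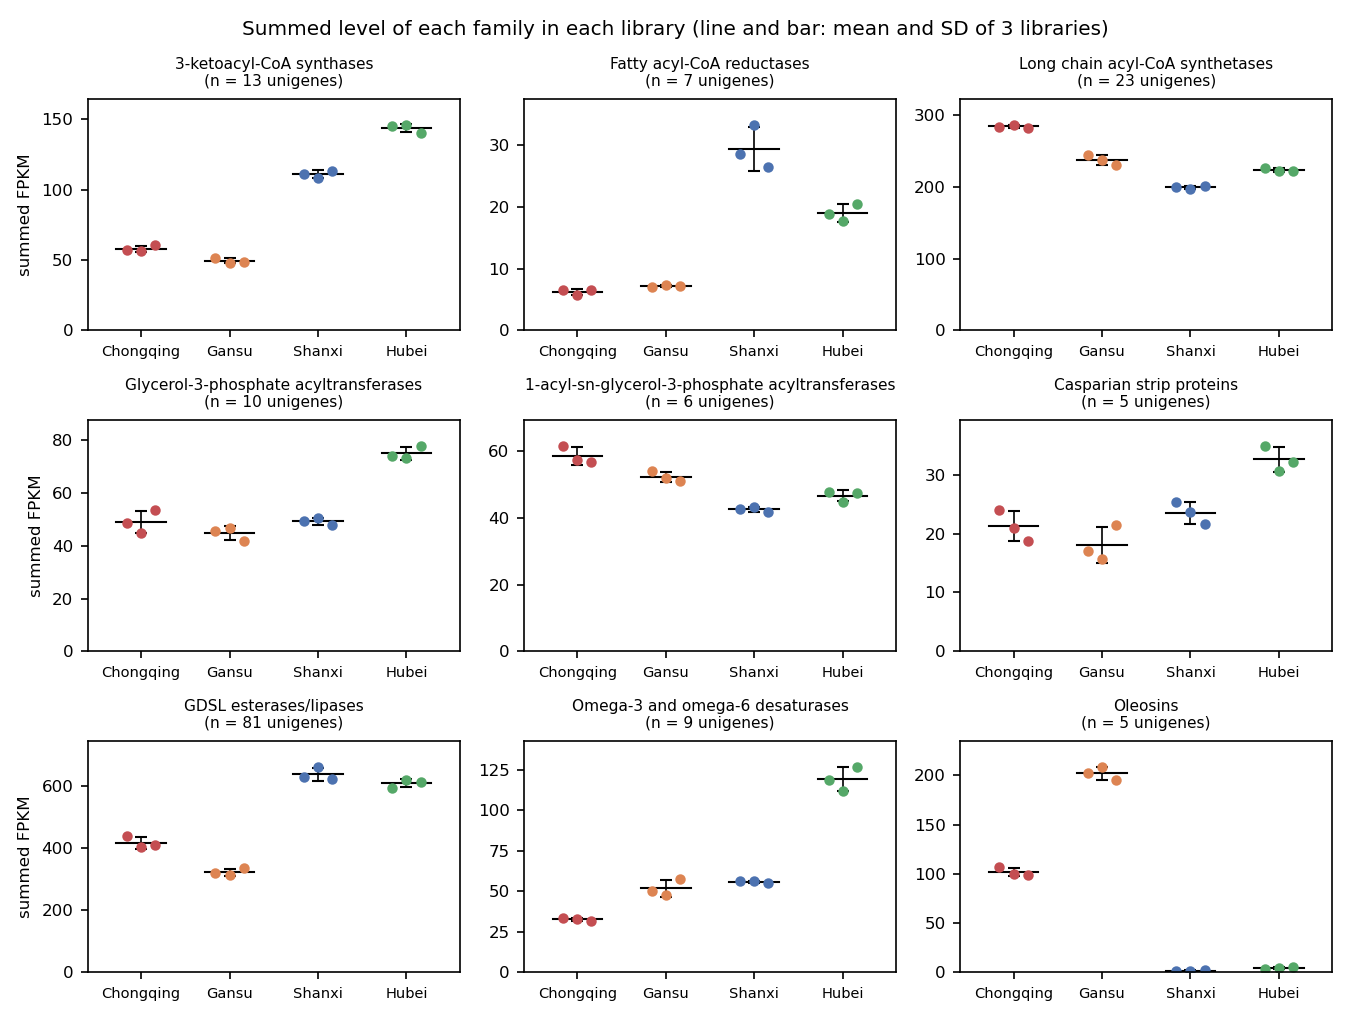
FPKM summed over the unigenes of each family, per library, for Chongqing, Gansu, Shanxi and Hubei, with the mean and SD of the 3 libraries of an area. Oleosin sums lie near 102 and 202 FPKM in Chongqing and Gansu and near 1.84 and 4.08 FPKM in Shanxi and Hubei, and the libraries of different areas do not overlap for that family.

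Libraries held 19920182 to 23319714 counts. Within areas, libraries varied beyond sampling noise, at 4.48 to 8.88 per degree of freedom in a chi-square test. The roots could be checked only in part by markers: 5 unigenes named SHORT-ROOT or SCARECROW, regulators of root patterning, were found and none named WOX5 or SOMBRERO. Their summed level was 3.06 to 3.94 FPKM in Chongqing, 3.25 to 3.68 FPKM in Gansu, 4.72 to 5.7 FPKM in Shanxi and 5.71 to 7.7 FPKM in Hubei, and one SCARECROW unigene was at 0 in all 3 Chongqing libraries. The 23 unigenes with phloem names summed to 97.5 to 108 FPKM in Chongqing, 360.0 to 374 FPKM in Gansu, 469 to 485 FPKM in Shanxi and 231 to 238 FPKM in Hubei. Calls of single unigenes did not follow the sum: of the 19 tested, the calls were 3 higher and 13 lower in Gansu than in Hubei and 3 higher and 5 lower in Shanxi than in Hubei. Xylem names (11 unigenes) gave 6.55 to 8.03 FPKM in Chongqing, 18.4 to 22.5 FPKM in Gansu, 8.21 to 9.13 FPKM in Shanxi and 15.6 to 17 FPKM in Hubei. Sums for photosynthesis (16 unigenes) were 296 to 301 FPKM in Chongqing, 142 to 158 FPKM in Gansu, 217 to 221 FPKM in Shanxi and 194 to 207 FPKM in Hubei. Those for dividing cells (14 unigenes) were 163 to 168 FPKM in Chongqing, 111 to 119 FPKM in Gansu, 118 to 122 FPKM in Shanxi and 164 to 172 FPKM in Hubei. Tissue markers thus differed between areas as well, and their part in the results was not tested. In whole roots, fewer cells of a type and less RNA per cell cannot be told apart.

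Differences between areas were tested in counts with edgeR's quasi-likelihood test, and a unigene was called where the adjusted p was under 0.05 over all 60756 unigenes tested. Of the 159 members, 148 passed the filter on low counts and 11 did not. Any difference between areas was called in 135 of the 148, or 91.2%, against a background of 70.4% of all unigenes tested. Among unigenes with a Swiss-Prot description and 30 or more counts it was 83.5%. Of the tested members, 15 were called in all 6 pairs of areas and 11 in none. Neither count was taken for all unigenes tested, so neither is read as a trait of the members.

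Members were called lower more often than higher in Chongqing and in Gansu against Hubei and against Shanxi. The counts were 30 higher and 68 lower in Chongqing than in Hubei, with a background of 23.6% and 25.9% of all unigenes and 26.1% and 35.8% of the described ones. There were 28 higher and 72 lower in Gansu than in Hubei (background 24.0% and 26.5%, described 26.4% and 35.9%). Fewer were called between Shanxi and Hubei, with 38 higher and 47 lower in Shanxi than in Hubei (background 21.0% and 23.5%, described 24.4% and 31.0%). Both members' shares lay near those of the described unigenes. All unigenes tested also had fewer calls in this pair, at 44.6%, against 49.6% for Chongqing over Hubei and 50.5% for Gansu over Hubei. Between Chongqing and Gansu the split was even, with 37 higher and 39 lower in Chongqing than in Gansu (background 19.4% and 19.1%, described 24.3% and 24.5%). Against Shanxi there were 35 higher and 60 lower in Chongqing than in Shanxi (background 23.0% and 24.8%, described 26.8% and 33.0%), and 33 higher and 61 lower in Gansu than in Shanxi (background 21.2% and 22.9%, described 25.6% and 30.7%). Median log2 fold changes of the tested members were -0.52 and -0.74 for Chongqing and Gansu over Hubei and -0.15 for Shanxi over Hubei. Over all unigenes tested these medians were 0.00, 0.01 and 0.00. Pairs that share an area share its libraries. These shares, and those for any difference, are also the background of the families and lists below.

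**Figure D2:**
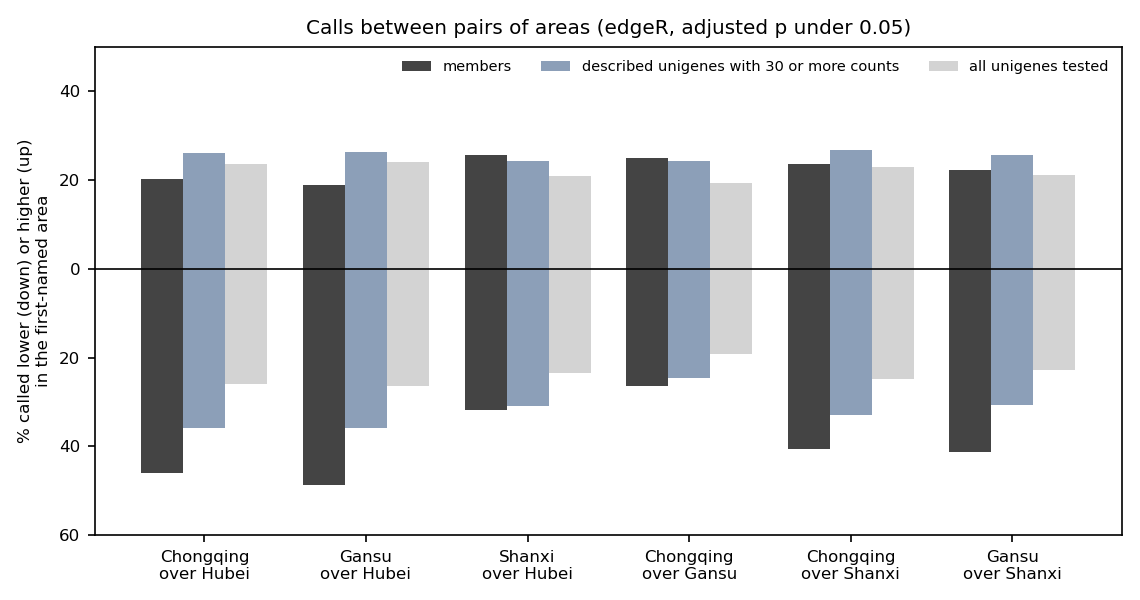
Percent of unigenes called higher (up) or lower (down) in the first-named area of each pair, for the 148 tested members, for described unigenes with 30 or more counts and for all unigenes tested. The members' bars reach furthest down for Chongqing and Gansu over Hubei, where 68 and 72 of 148 members were called lower.

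A call against each of the other 3 areas was reached by 4 members highest in Chongqing, 8 in Gansu, 21 in Shanxi and 31 in Hubei. The background shares of all unigenes were 7.04%, 5.97%, 7.44% and 11.0%, and the members' shares were 2.70%, 5.41%, 14.2% and 20.9%. Lowest of the 4 areas by the same rule were 20 members in Chongqing, 20 in Gansu, 11 in Shanxi and 7 in Hubei. The background shares were 7.78%, 6.6%, 6.66% and 7.79%. Shares of highest and lowest areas were not taken for the described unigenes with 30 or more counts. Of those, 83.5% showed any difference, against 70.4% of all unigenes tested, so the backgrounds given here may be too low for the members. Of the tested members, 28 were at 0 counts in at least 1 area, and 2 were found in a single area.

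**Figure D3:**
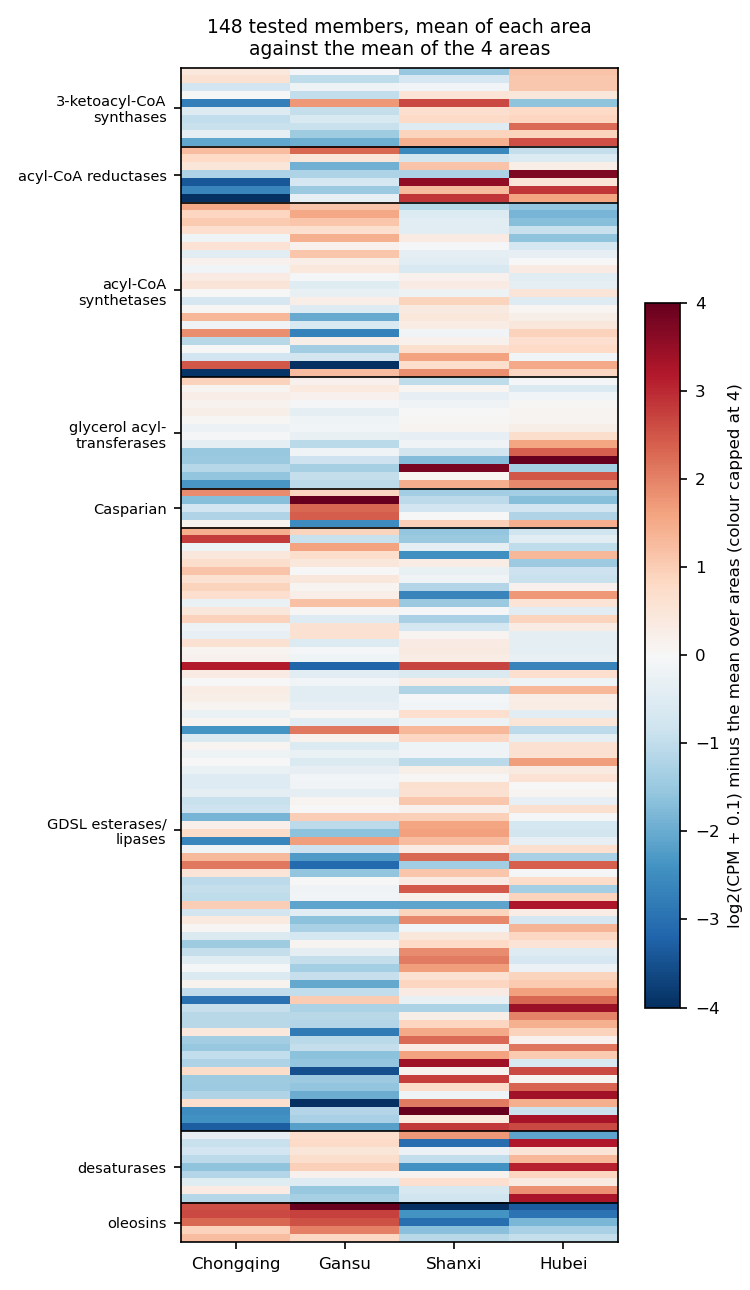
Each row is 1 of the 148 tested members and each column an area, with colour for log2(CPM + 0.1) minus the member's mean over the 4 areas, capped at 4. Chongqing and Gansu are red in all 5 oleosin rows, and 14 of the 22 acyl-CoA synthetases and 4 of the 5 Casparian strip proteins are also highest in one of these areas. Of the 76 GDSL rows, 32 are highest in Hubei and 27 in Shanxi.

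The identifier of a unigene ends in a digit from 1 to 4 whose meaning is not given in the sources used here, and after the values were seen this digit was found to move with the area of highest level. Among all unigenes tested, those ending in 1 had their highest mean in Chongqing in 51.1% of cases, those ending in 2 in Hubei in 53.1%, and those ending in 4 in Shanxi in 43.3%. The members went the same way for digits 2 and 4: of the 41 that end in 2, 30 were highest in Hubei, and of the 40 that end in 4, 21 in Shanxi. For digit 1 the link was weaker in the members. Of the 36 that end in 1, 12 were highest in Chongqing, or 33.3% against the 51.1% of all unigenes. Against Hubei, Chongqing was higher in 15 and lower in 8 of the members ending in 1, but higher in 5 and lower in 28 of those ending in 2. The counts were 3 and 18 of those ending in 3, and 7 and 14 of those ending in 4. Shanxi against Hubei was higher in 21 and lower in 3 members ending in 4, and higher in 3 and lower in 24 members ending in 2. Over all unigenes tested, Chongqing was higher than Hubei in 6560 and lower in 1351 of the 14871 ending in 1. For digit 2 the counts were 2175 and 5763 of 14075, and for digit 3 2083 and 4883 of 14467. For digit 4 they were 3548 and 3767 of 17343. Shanxi against Hubei was higher in 6100 and lower in 1741 of those ending in 4, and 1221 and 6142 for digit 2. These are also the background of the digit counts below. The part of the digit in the calls was not tested. Unigenes of 1 gene, of alleles or of near-identical copies can split reads between them, so the level of a single unigene is uncertain as a measure of its gene.

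**Figure D4:**
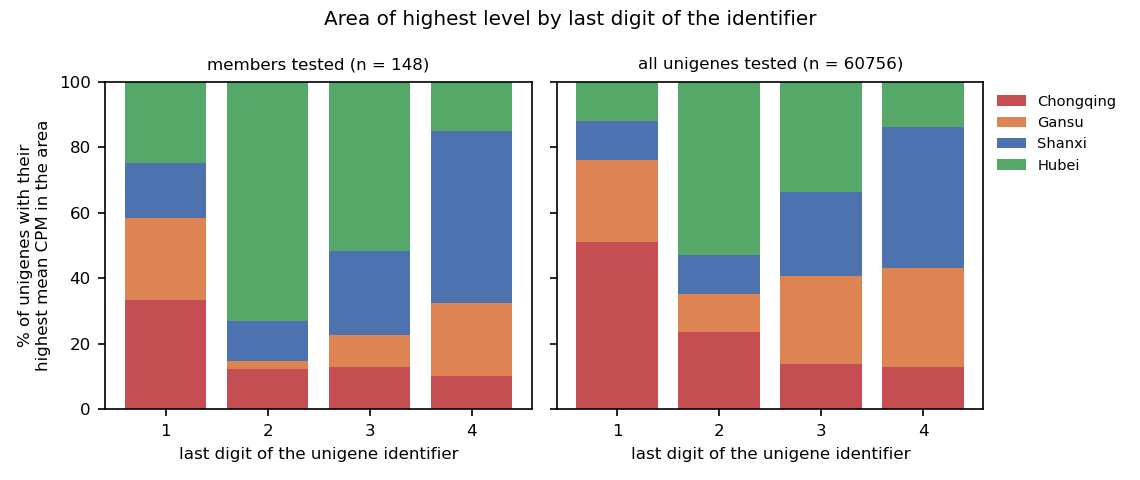
Percent of unigenes with their highest mean CPM in each area, by the last digit of the identifier, for the 148 tested members (left) and all 60756 unigenes tested (right). Green (Hubei) fills 73.2% of the members ending in 2, and blue (Shanxi) 52.5% of those ending in 4.

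Counts were also summed over all unigenes with the same Swiss-Prot protein, whatever their digit. Of the 34 proteins with several tested members, 28 had unigenes of more than 1 digit. In 16 of these 34 proteins, unigenes were called in opposite directions in at least 1 pair of areas. How often this occurs among other proteins was not counted, so it is not read as a trait of these families. Of 71 member proteins in the fit on sums, 67 showed any difference, against a background of 86.6% of 11643 proteins. Against Hubei, 20 were higher and 39 lower in Chongqing (background 24.7% and 40.7%), 17 higher and 38 lower in Gansu (background 25.8% and 40.0%), and 19 higher and 24 lower in Shanxi (background 23.0% and 35.7%). The majority of lower calls in Chongqing and Gansu was thus present in the sums as well, for members and for the background. Where a fold change is printed for a single unigene and the sum of its protein differs from it by more than 1.5 times, the sum is given in the same passage.

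Desaturases place double bonds in fatty acids. The 9 members were 2 omega-6 desaturases, which turn oleate into linoleate, and 7 omega-3 desaturases, which turn linoleate into linolenate, each group with plastid and endoplasmic reticulum forms. All 9 were called between some areas: 1 higher and 8 lower in Chongqing than in Hubei, 1 higher and 6 lower in Gansu than in Hubei, and 2 higher and 5 lower in Shanxi than in Hubei. Calls in either direction thus came to 100%, 77.8% and 77.8%, against 49.6%, 50.5% and 44.6% of all unigenes tested. Described unigenes with 30 or more counts were called more often, with 26.1% higher and 35.8% lower for Chongqing over Hubei. For Gansu over Hubei these shares were 26.4% and 35.9%, and for Shanxi over Hubei 24.4% and 31.0%. None of the 9 identifiers ends in 1. Chloroplastic omega-3 desaturase TRINITY_DN22259_c0_g2_i3_3 had 3.99, 4.01 and 3.22 CPM in Chongqing, 10.9, 10.5 and 14 CPM in Gansu, 0.896, 0.339 and 1.01 CPM in Shanxi, and 72.1, 48.8 and 72 CPM in Hubei. CPM are counts scaled to library size by edgeR, and values of 1 unigene are compared on this scale. Every Hubei library lay above every library of the other areas, and the Shanxi libraries were lowest. Its log2 fold changes were -4.10 ± 0.22 (adjusted p = 5.27e-09) for Chongqing over Hubei, -2.44 ± 0.20 (adjusted p = 3.19e-07) for Gansu over Hubei and -6.42 ± 0.27 (adjusted p = 8.2e-10) for Shanxi over Hubei. A second unigene of the same name, TRINITY_DN12949_c0_g1_i1_2, had 7.07, 6.79 and 5.85 CPM in Chongqing, 1.46, 1.72 and 2.05 CPM in Gansu, 3.49, 3.22 and 3.08 CPM in Shanxi, and 20.9, 17.7 and 18.1 CPM in Hubei. Hubei was again highest without overlap, but here Gansu was lowest. The differences were -1.52 ± 0.15 (adjusted p = 1.51e-06) for Chongqing over Hubei, -3.43 ± 0.17 (adjusted p = 1.83e-09) for Gansu over Hubei and -2.53 ± 0.16 (adjusted p = 2.58e-08) for Shanxi over Hubei. With the 4 unigenes of this protein summed, the log2 fold changes were -2.63 for Chongqing over Hubei, -1.46 for Gansu over Hubei and -2.89 for Shanxi over Hubei.

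The omega-3 desaturase of the endoplasmic reticulum, TRINITY_DN20787_c1_g1_i6_2, showed the same order at a lower level, with 0.214, 0.305 and 0.169 CPM in Chongqing, 1.61, 0.963 and 3 CPM in Gansu, 0.0896, 0.127 and 0.044 CPM in Shanxi, and 5.87, 9.1 and 10.9 CPM in Hubei. Hubei libraries did not overlap those of any other area. Log2 fold changes came to -5.20 ± 0.48 (adjusted p = 9.41e-07) for Chongqing over Hubei, -2.20 ± 0.38 (adjusted p = 0.000304) for Gansu over Hubei and -6.54 ± 0.54 (adjusted p = 4.86e-07) for Shanxi over Hubei. Omega-6 members differed from these. Chloroplastic omega-6 desaturase TRINITY_DN22873_c1_g2_i1_3 had 22.1, 23 and 22.1 CPM in Chongqing, 20.8, 24.8 and 20.8 CPM in Gansu, 55, 46.7 and 48.5 CPM in Shanxi, and 40.6, 42.3 and 37.5 CPM in Hubei. Shanxi and Hubei lay above Chongqing and Gansu. The differences were -0.84 ± 0.09 (adjusted p = 5.14e-06) for Chongqing over Hubei and -0.86 ± 0.09 (adjusted p = 4.4e-06) for Gansu over Hubei. The endoplasmic reticulum form, TRINITY_DN21082_c0_g1_i3_4, was highest in Shanxi and lowest in Hubei, with 1.89, 0.915 and 2.58 CPM in Chongqing, 3.7, 3.14 and 4.36 CPM in Gansu, 5.64, 8.22 and 9.29 CPM in Shanxi, and 0.466, 0.758 and 0.128 CPM in Hubei. It was called higher in each other area, Chongqing included, than in Hubei. Log2 fold changes were 4.09 ± 0.48 (adjusted p = 1.38e-05) for Shanxi over Hubei and 3.05 ± 0.49 (adjusted p = 0.000156) for Gansu over Hubei. These values were 4.70 without Hubei replicate 2 for Shanxi over Hubei and 3.65 without Hubei replicate 2 for Gansu over Hubei.

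Long chain acyl-CoA synthetases activate free fatty acids to CoA esters, the form in which they enter elongation, acyl transfer or peroxisomal breakdown. Of 23 members 22 were tested and 20 differed between some areas, with no common direction: 8 higher and 5 lower in Chongqing than in Hubei, 8 higher and 8 lower in Gansu than in Hubei, and 6 higher and 4 lower in Shanxi than in Hubei. In these pairs 59.1%, 72.7% and 45.5% were called in either direction, against 49.6%, 50.5% and 44.6% of all unigenes tested. Against the described unigenes, only the share for Gansu over Hubei lay above the background. A pair of unigenes named acyl-CoA synthetase 8 moved in opposite ways. TRINITY_DN17641_c0_g1_i2_2 had 239.6, 259 and 237 CPM in Chongqing, 1.12, 3.09 and 0.575 CPM in Gansu, 65.9, 66.9 and 81.2 CPM in Shanxi, and 134, 125 and 115 CPM in Hubei. It was lowest in Gansu and highest in Chongqing, and no areas overlapped. TRINITY_DN21163_c0_g1_i1_4 had 62.6, 60.0 and 57.1 CPM in Chongqing, 180.0, 192 and 175 CPM in Gansu, 93.8, 78.6 and 82.7 CPM in Shanxi, and 22.6, 25.1 and 19.2 CPM in Hubei, with Gansu highest and Hubei lowest. In Gansu the first fell, with log2 fold changes of -6.34 ± 0.29 (adjusted p = 1.06e-09) for Gansu over Hubei and -5.54 ± 0.29 (adjusted p = 5.46e-09) for Gansu over Shanxi. These values were -7.24 without Gansu replicate 2 for Gansu over Hubei and -6.43 without Gansu replicate 2 for Gansu over Shanxi. The second rose in Gansu. Fold changes in log2 were 3.03 ± 0.10 (adjusted p = 4.74e-11) for Gansu over Hubei and 1.10 ± 0.09 (adjusted p = 5.14e-07) for Gansu over Shanxi. Summed over both unigenes, Gansu differed by 0.31 for Gansu over Hubei and 0.25 for Gansu over Shanxi, and Chongqing by 1.01 for Chongqing over Hubei and 0.70 for Chongqing over Gansu. The 2 identifiers end in 2 and 4.

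Peroxisomal acyl-CoA synthetases 6 and 7 feed fatty acids into beta-oxidation. Synthetase 7 (TRINITY_DN12506_c0_g1_i1_1) had 50.5, 54.5 and 50.8 CPM in Chongqing, 51.7, 56.8 and 44.1 CPM in Gansu, 25.6, 22.5 and 24.1 CPM in Shanxi, and 18.7, 16.3 and 17.5 CPM in Hubei. Chongqing and Gansu overlapped each other and lay above Shanxi and Hubei. The fitted log2 fold changes were 1.57 ± 0.10 (adjusted p = 2.33e-08) for Chongqing over Hubei, 1.54 ± 0.10 (adjusted p = 2.99e-08) for Gansu over Hubei, 1.11 ± 0.10 (adjusted p = 6.21e-07) for Chongqing over Shanxi and 1.08 ± 0.10 (adjusted p = 9.92e-07) for Gansu over Shanxi. Synthetase 6 (TRINITY_DN18760_c0_g1_i3_1) had 73.3, 73 and 61.7 CPM in Chongqing, 99.2, 105 and 95.4 CPM in Gansu, 53.7, 44.6 and 47.8 CPM in Shanxi, and 101, 93 and 86.6 CPM in Hubei. Here Shanxi was lowest in every library. Differences came to -0.94 ± 0.09 (adjusted p = 2.06e-06) for Shanxi over Hubei and 1.03 ± 0.09 (adjusted p = 8.53e-07) for Gansu over Shanxi. The 4 tested unigenes of synthetase 6 were split, with 2 higher and 2 lower in Gansu than in Shanxi. Their sum differed by -0.65 for Shanxi over Hubei and 0.71 for Gansu over Shanxi. Acyl-CoA synthetase 4, which takes part in oil synthesis in Arabidopsis, was highest in Hubei: TRINITY_DN20657_c0_g1_i3_1 had 89, 80.3 and 92.1 CPM in Chongqing, 75, 70.4 and 67.3 CPM in Gansu, 81.3, 76.5 and 70.6 CPM in Shanxi, and 124, 119.6 and 127 CPM in Hubei. The differences were -0.50 ± 0.07 (adjusted p = 6.25e-05) for Chongqing over Hubei, -0.80 ± 0.07 (adjusted p = 9.14e-07) for Gansu over Hubei and -0.70 ± 0.07 (adjusted p = 4.13e-06) for Shanxi over Hubei. The 6 tested unigenes of synthetase 4 were split, with 2 higher and 1 lower in Shanxi than in Hubei, where their sum differed by -0.48. Synthetase 3, the unigene TRINITY_DN23489_c0_g7_i1_3, was not called in any pair, with means of 1.68 CPM in Chongqing, 1.26 CPM in Gansu, 1.51 CPM in Shanxi and 0.958 CPM in Hubei.

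Ketoacyl-CoA synthases carry out the first step of each elongation cycle and set the chain length of very long chain fatty acids for wax and suberin. Of 13 members 10 were tested, and against Hubei the calls were mostly lower: 0 higher and 6 lower in Chongqing than in Hubei, 1 higher and 8 lower in Gansu than in Hubei, and 1 higher and 5 lower in Shanxi than in Hubei. Called in either direction were 60%, 90% and 60% in these pairs, against 49.6%, 50.5% and 44.6% of all unigenes tested. Against the described unigenes, the share for Chongqing over Hubei was not above the background, and that for Shanxi over Hubei lay near it. None of the 10 identifiers ends in 1. Median log2 fold changes were -1.68, -1.79 and -0.65 for Chongqing, Gansu and Shanxi over Hubei. Ketoacyl-CoA synthase 4 (TRINITY_DN5894_c0_g1_i1_4), the most abundant, had 37.5, 38.5 and 34.8 CPM in Chongqing, 26.2, 28.4 and 27.3 CPM in Gansu, 87.9, 78.4 and 85.1 CPM in Shanxi, and 97.1, 90.8 and 86.2 CPM in Hubei. Shanxi and Hubei overlapped, and both lay above Chongqing, which lay above Gansu. Its log2 fold changes were -1.31 ± 0.07 (adjusted p = 6.46e-09) for Chongqing over Hubei, -1.74 ± 0.07 (adjusted p = 4.85e-10) for Gansu over Hubei and -0.13 ± 0.07 (adjusted p = 0.173) for Shanxi over Hubei. A second unigene of this protein, TRINITY_DN20004_c0_g2_i1_3, went against the first between Gansu and Hubei, with means of 0.0143 CPM in Chongqing, 2.42 CPM in Gansu, 4.62 CPM in Shanxi and 0.149 CPM in Hubei.

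Ketoacyl-CoA synthase 2, which in Arabidopsis roots makes chains for suberin, was represented by TRINITY_DN20914_c0_g1_i2_2 with 30.5, 33.4 and 34.7 CPM in Chongqing, 16.9, 17.3 and 16.2 CPM in Gansu, 52.1, 45 and 49.3 CPM in Shanxi, and 45.1, 45.8 and 45.2 CPM in Hubei. Gansu was lowest in every library, and Shanxi and Hubei overlapped. The differences were -0.46 ± 0.07 (adjusted p = 0.000171) for Chongqing over Hubei, -1.43 ± 0.08 (adjusted p = 5.71e-09) for Gansu over Hubei and -1.54 ± 0.08 (adjusted p = 3.86e-09) for Gansu over Shanxi. Ketoacyl-CoA synthase 11 had 2 unigenes, both highest in Hubei. TRINITY_DN21655_c0_g2_i1_3 had 23.6, 22.6 and 26.2 CPM in Chongqing, 37.9, 35.2 and 33 CPM in Gansu, 36.5, 39.6 and 39.6 CPM in Shanxi, and 90.5, 87 and 83.9 CPM in Hubei. TRINITY_DN18882_c0_g2_i1_2 had 0.557, 0.566 and 0.932 CPM in Chongqing, 0.731, 0.659 and 0.863 CPM in Gansu, 8.47, 9.11 and 8.9 CPM in Shanxi, and 21.4, 19.8 and 18.2 CPM in Hubei. Hubei libraries lay above all others for both, and in the second unigene Chongqing and Gansu were lowest. The second differed by -4.84 ± 0.20 (adjusted p = 3.06e-10) for Chongqing over Hubei, -4.70 ± 0.20 (adjusted p = 4.13e-10) for Gansu over Hubei and -1.17 ± 0.15 (adjusted p = 3.54e-05) for Shanxi over Hubei. For the first the values were -1.85 ± 0.08 (adjusted p = 4.85e-10) for Chongqing over Hubei, -1.30 ± 0.08 (adjusted p = 1.42e-08) for Gansu over Hubei and -1.18 ± 0.08 (adjusted p = 4.94e-08) for Shanxi over Hubei. The sum of both differed by -2.15 for Chongqing over Hubei, -1.58 for Gansu over Hubei and -1.21 for Shanxi over Hubei. Ketoacyl-CoA synthase 6, the main wax enzyme of Arabidopsis shoots, was the unigene TRINITY_DN6542_c0_g1_i1_2, with 0 CPM in all 3 Chongqing libraries, 0 CPM in all 3 Gansu libraries, 0.0448, 0.0424 and 0 CPM in Shanxi, and 0.652, 1.11 and 0.598 CPM in Hubei. It was at least 17.7-fold lower in Chongqing and at least 16.2-fold lower in Gansu than in Hubei, taking 3 counts as the floor of an area at 0. Ketoacyl-CoA synthase 5, at 55 counts in Hubei and 0 in each of the other areas, did not pass the filter.

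Fatty acyl-CoA reductases turn acyl-CoA into the primary alcohols of wax and suberin. All 7 members carried the name of the chloroplastic reductase 2, which in Arabidopsis supplies alcohols for the pollen wall, so the suberin reductases of that plant were not the best match of any unigene. All 7 were called between some areas, in different directions. TRINITY_DN21998_c0_g1_i4_4 had 0.429, 0 and 0 CPM in Chongqing, 0.731, 2.13 and 1.68 CPM in Gansu, 32.3, 30.8 and 25.2 CPM in Shanxi, and 3.91, 2.72 and 4.01 CPM in Hubei. TRINITY_DN20776_c1_g1_i2_2 had 0, 0 and 0.0424 CPM in Chongqing, 1.8, 1.42 and 1.23 CPM in Gansu, 11.5, 18 and 13.8 CPM in Shanxi, and 5.59, 5.17 and 6.57 CPM in Hubei. Both were highest in Shanxi without overlap and at or near 0 in Chongqing. Both rose in Shanxi against Hubei, with log2 fold changes of 3.05 ± 0.39 (adjusted p = 2.49e-05) for Shanxi over Hubei in the first and 1.32 ± 0.22 (adjusted p = 0.000321) for Shanxi over Hubei in the second. TRINITY_DN20532_c0_g1_i3_1 had 18.3, 17.7 and 18.6 CPM in Chongqing, 16.1, 12.5 and 15.9 CPM in Gansu, 5.51, 6.48 and 6.69 CPM in Shanxi, and 6.61, 7.22 and 7.85 CPM in Hubei. It was higher in Chongqing and Gansu. In log2 the differences were 1.33 ± 0.13 (adjusted p = 1.75e-06) for Chongqing over Hubei, 1.03 ± 0.13 (adjusted p = 2.02e-05) for Gansu over Hubei and 1.55 ± 0.13 (adjusted p = 4.85e-07) for Chongqing over Shanxi. TRINITY_DN16402_c0_g1_i1_2 was highest in Hubei, with 0.0429, 0 and 0.0424 CPM in Chongqing, 0.292, 0.152 and 0.123 CPM in Gansu, 2.02, 1.74 and 1.76 CPM in Shanxi, and 6.29, 5.93 and 5.08 CPM in Hubei. The log2 fold changes were -4.91 ± 0.38 (adjusted p = 2.1e-07) for Gansu over Hubei and -1.65 ± 0.30 (adjusted p = 0.000531) for Shanxi over Hubei.

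The reductase unigene TRINITY_DN22548_c0_g3_i1_3 was found in 1 area, with 0 CPM in all 3 Chongqing libraries, 0 CPM in all 3 Gansu libraries, 0 CPM in all 3 Shanxi libraries, and 3.31, 2.81 and 3.16 CPM in Hubei. With 208 counts in Hubei it was at least 69.5-fold lower in Chongqing, at least 63.6-fold lower in Gansu and at least 69.4-fold lower in Shanxi. TRINITY_DN29792_c0_g1_i1_1, by contrast, had 1.54, 1.22 and 1.14 CPM in Chongqing, 2.48, 3.35 and 2.55 CPM in Gansu, 0 CPM in all 3 Shanxi libraries, and 0.14, 0.312 and 0.171 CPM in Hubei. Summed over the 7 unigenes, reductase 2 differed by -0.39 for Chongqing over Hubei, -0.38 for Gansu over Hubei, 0.98 for Shanxi over Hubei and -1.37 for Chongqing over Shanxi. The direction of TRINITY_DN20532_c0_g1_i3_1 against Hubei and Shanxi is the reverse of that of the sum, and so is that of TRINITY_DN16402_c0_g1_i1_2 for Shanxi over Hubei. Each of the 4 last digits occurs among the 7 identifiers.

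Glycerol-3-phosphate acyltransferases attach acyl chains to glycerol, some for membrane and storage lipids and others, in Arabidopsis acyltransferases 5 and 7, for suberin. The name pattern also took in 6 unigenes of 1-acyl-sn-glycerol-3-phosphate acyltransferases, which act on the next step of glycerolipid synthesis and are counted apart here. Of 10 glycerol-3-phosphate acyltransferases 8 were tested, and 4 were called for any difference. This share of 50% lay below the 70.4% of all unigenes tested and the 83.5% of the described ones. No unigene was called higher than in Hubei in any area: 0 higher and 4 lower in Chongqing than in Hubei, 0 higher and 4 lower in Gansu than in Hubei, and 0 higher and 3 lower in Shanxi than in Hubei. Probable acyltransferase 2 (TRINITY_DN22000_c0_g1_i1_2) had 0.343, 0.61 and 0.297 CPM in Chongqing, 0.682, 0.862 and 0.575 CPM in Gansu, 0.269, 0.381 and 0.352 CPM in Shanxi, and 24, 23.3 and 22.7 CPM in Hubei. Every Hubei library was at 22.7 CPM or more, and every other library at 0.862 CPM or less. The log2 fold changes were -5.79 ± 0.24 (adjusted p = 3.51e-10) for Chongqing over Hubei, -5.05 ± 0.23 (adjusted p = 8.36e-10) for Gansu over Hubei and -6.10 ± 0.25 (adjusted p = 5.44e-10) for Shanxi over Hubei. The suberin acyltransferases were scarce. Acyltransferase 5 (TRINITY_DN27192_c0_g1_i1_2) had 0.0429, 0.131 and 0.254 CPM in Chongqing, 0.0974, 0 and 0.0411 CPM in Gansu, 0.403, 0 and 0.132 CPM in Shanxi, and 0.838, 0.892 and 0.726 CPM in Hubei. Acyltransferase 7 (TRINITY_DN27608_c0_g1_i1_3) had means of 0 CPM in Chongqing, 0.109 CPM in Gansu, 0.188 CPM in Shanxi and 0.382 CPM in Hubei and was not tested. Acyltransferases 1 and 3 had their highest means in Hubei too. Acyltransferase 1 (TRINITY_DN288_c0_g1_i1_2) had means of 0.0143 CPM in Chongqing, 0.0768 CPM in Gansu, 0.263 CPM in Shanxi and 1.82 CPM in Hubei. Probable acyltransferase 3 (TRINITY_DN27224_c0_g1_i1_2) had means of 0 CPM in Chongqing, 0.155 CPM in Gansu, 0.0706 CPM in Shanxi and 1.39 CPM in Hubei.

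Acyltransferase 9, the glycerolipid enzyme of the endoplasmic reticulum, had 3 tested unigenes. Its leading unigene TRINITY_DN20686_c0_g1_i3_1 had 32.2, 31.5 and 33.9 CPM in Chongqing, 26.4, 33.8 and 23.4 CPM in Gansu, 35.6, 31.7 and 30.3 CPM in Shanxi, and 35.3, 32.1 and 33.9 CPM in Hubei. All 4 areas overlapped, and it was not called in any pair. The log2 fold changes were -0.06 ± 0.12 (adjusted p = 0.737) for Chongqing over Hubei, -0.28 ± 0.12 (adjusted p = 0.0628) for Gansu over Hubei and -0.05 ± 0.12 (adjusted p = 0.755) for Shanxi over Hubei. Gansu was called lower than Hubei without Gansu replicate 2 and in the sum over the 3 unigenes of this protein, at -0.35 for Gansu over Hubei. Another of the 3, TRINITY_DN20686_c0_g2_i4_1, was called in 1 pair, at -0.45 ± 0.15 (adjusted p = 0.0217) for Chongqing over Hubei. That call was lost without Chongqing replicate 2, without Chongqing replicate 3, without Hubei replicate 1 and in the sum, where the values were -0.36, -0.43, -0.33 and -0.14. The third was not called in any pair. The 6 acyltransferases of the next step split: 3 higher and 2 lower in Chongqing than in Hubei and 2 higher and 3 lower in Shanxi than in Hubei. The plastid form BAT2 (TRINITY_DN23335_c0_g4_i3_1) had 27.4, 25.3 and 26.1 CPM in Chongqing, 15.6, 15.3 and 15.6 CPM in Gansu, 7.03, 7.2 and 6.03 CPM in Shanxi, and 13.5, 12 and 14.3 CPM in Hubei. Chongqing was highest and Shanxi lowest without overlap. The log2 fold changes were 0.98 ± 0.10 (adjusted p = 2.59e-06) for Chongqing over Hubei, 1.96 ± 0.10 (adjusted p = 5.19e-09) for Chongqing over Shanxi and 1.20 ± 0.11 (adjusted p = 8.19e-07) for Gansu over Shanxi. Acyltransferase 2 of this step had a common unigene, TRINITY_DN24610_c0_g2_i2_4, with means of 34.9 CPM in Chongqing, 32.4 CPM in Gansu, 23.1 CPM in Shanxi and 27.1 CPM in Hubei. A second, TRINITY_DN4989_c0_g1_i1_4, had 0.3, 0.0871 and 0.381 CPM in Chongqing, 0.779, 0.76 and 0.781 CPM in Gansu, 5.6, 3.69 and 5.15 CPM in Shanxi, and 7.08, 6.55 and 6.36 CPM in Hubei. The second was lower in Chongqing and Gansu than in Hubei, with log2 fold changes of -4.67 ± 0.35 (adjusted p = 1.48e-07) for Chongqing over Hubei and -3.10 ± 0.31 (adjusted p = 2.35e-06) for Gansu over Hubei. A further unigene of this name, TRINITY_DN21766_c0_g2_i1_4, was high in Shanxi, with 0.0429, 0 and 0 CPM in Chongqing, 0 CPM in all 3 Gansu libraries, 3.49, 3.01 and 3.57 CPM in Shanxi, and 0 CPM in all 3 Hubei libraries.

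GDSL esterases/lipases were the largest family, with 81 unigenes, of which 76 were tested and 70 differed between some areas. That is 92.1%, against 70.4% of all unigenes tested and 83.5% of the described ones. They were 10 higher and 38 lower in Chongqing than in Hubei and 5 higher and 38 lower in Gansu than in Hubei. They were 25 higher and 21 lower in Shanxi than in Hubei. Against Shanxi they were 14 higher and 38 lower in Chongqing than in Shanxi and 9 higher and 38 lower in Gansu than in Shanxi. By calls against each other area, 2 were highest in Chongqing, 1 in Gansu, 15 in Shanxi and 14 in Hubei. The digit moved with these calls: of the 22 that end in 4, 16 were higher and 0 lower in Shanxi than in Hubei, and of the 20 that end in 2, 1 was higher and 12 lower. Over all unigenes these counts were 6100 and 1741 of 17343 for digit 4, and 1221 and 6142 of 14075 for digit 2. By FPKM the most abundant was TRINITY_DN4834_c0_g1_i1_4, matched to At1g29670, with 1.8, 1.74 and 1.23 CPM in Chongqing, 3.02, 4.16 and 3.66 CPM in Gansu, 116, 118 and 115 CPM in Shanxi, and 97.8, 108 and 103 CPM in Hubei. Shanxi and Hubei libraries were at 97.8 CPM or more, and Chongqing and Gansu libraries at 4.16 CPM or less. The log2 fold changes were -6.02 ± 0.13 (adjusted p = 8.24e-13) for Chongqing over Hubei, -4.83 ± 0.11 (adjusted p = 2.65e-12) for Gansu over Hubei, -6.19 ± 0.13 (adjusted p = 8.87e-13) for Chongqing over Shanxi and -5.01 ± 0.11 (adjusted p = 2.64e-12) for Gansu over Shanxi. Summed over all unigenes of At1g29670 they were -4.61 for Chongqing over Hubei, -2.77 for Gansu over Hubei, -4.88 for Chongqing over Shanxi and -3.04 for Gansu over Shanxi.

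Other GDSL members differed in the area of their highest mean. At5g55050 (TRINITY_DN22940_c0_g1_i11_2) was highest in Hubei and lowest in Gansu, with 56.6, 58.1 and 59.8 CPM in Chongqing, 23.3, 25.1 and 20.4 CPM in Gansu, 51.2, 50.3 and 53.5 CPM in Shanxi, and 145, 143 and 139 CPM in Hubei. Its log2 fold changes were -1.29 ± 0.07 (adjusted p = 5.91e-09) for Chongqing over Hubei, -2.64 ± 0.08 (adjusted p = 1.38e-11) for Gansu over Hubei and -1.46 ± 0.07 (adjusted p = 2.92e-09) for Shanxi over Hubei. CPRD49 (TRINITY_DN23328_c1_g1_i1_2) kept the same order, with 9.95, 9.67 and 8.3 CPM in Chongqing, 0.39, 0.355 and 0.452 CPM in Gansu, 5.2, 7.12 and 6.34 CPM in Shanxi, and 36.4, 35.9 and 34.7 CPM in Hubei. The Gansu value was -6.45 ± 0.18 (adjusted p = 1.03e-11) for Gansu over Hubei, and -2.17 for Gansu over Hubei with the unigenes of this protein summed. Highest in Chongqing and lowest in Hubei was At5g18430 (TRINITY_DN24071_c0_g1_i24_4), with 171, 139.8 and 126 CPM in Chongqing, 113, 141 and 116 CPM in Gansu, 99.7, 113 and 120.2 CPM in Shanxi, and 25.5, 37.5 and 36.7 CPM in Hubei. Gansu libraries overlapped those of Chongqing and of Shanxi, and all 3 areas lay above Hubei. The differences were 2.13 ± 0.16 (adjusted p = 9.92e-08) for Chongqing over Hubei, 1.89 ± 0.15 (adjusted p = 3.23e-07) for Gansu over Hubei and 1.74 ± 0.15 (adjusted p = 9.08e-07) for Shanxi over Hubei. At5g03610 (TRINITY_DN22897_c0_g2_i12_2) had 43.7, 36.9 and 38.9 CPM in Chongqing, 0.39, 0.253 and 0.493 CPM in Gansu, 31.9, 28.5 and 25.2 CPM in Shanxi, and 1.58, 0.223 and 0 CPM in Hubei, high in Chongqing and Shanxi and low in Gansu and Hubei. The values were 6.08 ± 0.49 (adjusted p = 2.58e-07) for Chongqing over Hubei, 5.60 ± 0.49 (adjusted p = 7.92e-07) for Shanxi over Hubei, 6.67 ± 0.52 (adjusted p = 3.27e-07) for Chongqing over Gansu and -6.19 ± 0.52 (adjusted p = 5.75e-07) for Gansu over Shanxi. They became 8.44 without Hubei replicate 1 for Chongqing over Hubei and 7.96 without Hubei replicate 1 for Shanxi over Hubei. Summed with the other unigenes of At5g03610 they were 2.23 for Chongqing over Hubei, 2.55 for Shanxi over Hubei, 3.28 for Chongqing over Gansu and -3.60 for Gansu over Shanxi.

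At4g01130 and At5g03980 were highest in Shanxi. TRINITY_DN12208_c0_g1_i2_4, matched to At4g01130, had 1.03, 1.22 and 0.72 CPM in Chongqing, 0.877, 1.17 and 0.863 CPM in Gansu, 21.8, 18.5 and 19.5 CPM in Shanxi, and 3.91, 3.3 and 2.09 CPM in Hubei. It rose in Shanxi, with a log2 fold change of 2.68 ± 0.23 (adjusted p = 6.33e-07) for Shanxi over Hubei. Against Shanxi the others differed by -4.33 ± 0.26 (adjusted p = 1.48e-08) for Chongqing over Shanxi and -4.36 ± 0.26 (adjusted p = 1.89e-08) for Gansu over Shanxi. Sums over this protein differed by 1.47 for Shanxi over Hubei, -2.37 for Chongqing over Shanxi and -3.15 for Gansu over Shanxi. Of the 4 unigenes of At5g03980, TRINITY_DN19532_c0_g1_i6_1 had 57, 52.9 and 53.1 CPM in Chongqing, 68, 72.3 and 70.8 CPM in Gansu, 126, 113 and 122 CPM in Shanxi, and 72, 79.6 and 76.5 CPM in Hubei. The unigene TRINITY_DN19532_c0_g2_i4_1 had 25.5, 35.7 and 34.9 CPM in Chongqing, 37.4, 38.1 and 40.8 CPM in Gansu, 101, 100.3 and 95.6 CPM in Shanxi, and 70.9, 64.7 and 62.9 CPM in Hubei. Shanxi was the highest area in every library of both. Shanxi over Hubei was 0.66 ± 0.06 (adjusted p = 2.14e-06) in the first and 0.58 ± 0.10 (adjusted p = 0.000481) in the second. Another, TRINITY_DN5501_c0_g1_i1_4, had 0 CPM in all 3 Chongqing libraries, 0.195, 0 and 0.247 CPM in Gansu, 12, 13.8 and 11.6 CPM in Shanxi, and 0.279, 0.0892 and 0.256 CPM in Hubei. It was at or under 0.279 CPM in every library outside Shanxi, and at least 286-fold lower in Chongqing than in Shanxi. The log2 fold change was -6.29 ± 0.51 (adjusted p = 1.62e-06) for Gansu over Shanxi, which became -6.90 without Gansu replicate 3 for Gansu over Shanxi. Summed over the 4, the differences were 0.69 for Shanxi over Hubei, -1.42 for Chongqing over Shanxi and -1.05 for Gansu over Shanxi. All 7 tested unigenes of At4g10955 were called lower in Gansu than in Hubei.

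Casparian strip proteins numbered 5, and all were called between some areas. CASPARIAN STRIP INTEGRITY FACTOR 1, in Arabidopsis a peptide signal that monitors the closure of the strip, had the highest FPKM of the family: TRINITY_DN13418_c0_g1_i1_4 had 8.14, 8.01 and 6.99 CPM in Chongqing, 0.926, 1.12 and 1.4 CPM in Gansu, 15.5, 13.1 and 12 CPM in Shanxi, and 21, 18.4 and 18.5 CPM in Hubei. Hubei was highest, Shanxi next, and Gansu lowest, and no libraries of different areas overlapped. The differences were -1.32 ± 0.14 (adjusted p = 4.42e-06) for Chongqing over Hubei, -4.06 ± 0.17 (adjusted p = 5.57e-10) for Gansu over Hubei, -0.51 ± 0.14 (adjusted p = 0.00835) for Shanxi over Hubei and 2.73 ± 0.18 (adjusted p = 5.11e-08) for Chongqing over Gansu. Casparian strip membrane proteins, which form the membrane platform of the strip, were not highest in Hubei. Membrane protein 1 (TRINITY_DN23421_c0_g4_i2_4) had 0 CPM in all 3 Chongqing libraries, 6.09, 6.59 and 8.55 CPM in Gansu, 0, 0.0847 and 0.0881 CPM in Shanxi, and 0 CPM in all 3 Hubei libraries. With 463 counts in Gansu it was at least 168-fold higher there than in Hubei and at least 169-fold lower in Chongqing than in Gansu. Further unigenes of membrane protein 1 were likewise highest in Gansu, TRINITY_DN11813_c0_g1_i1_4 with means of 0 CPM in Chongqing, 1.12 CPM in Gansu, 0.127 CPM in Shanxi and 0 CPM in Hubei. Those of TRINITY_DN11813_c0_g2_i1_4 were 0 CPM in Chongqing, 0.738 CPM in Gansu, 0 CPM in Shanxi and 0 CPM in Hubei. Membrane protein 3 (TRINITY_DN7455_c0_g1_i1_3) had 2.87, 2.22 and 1.86 CPM in Chongqing, 1.07, 0.963 and 1.19 CPM in Gansu, 0, 0 and 0.44 CPM in Shanxi, and 0.326, 0 and 0.128 CPM in Hubei. Chongqing over Hubei was 3.90 ± 0.99 (adjusted p = 0.00487), or 5.04 without Hubei replicate 1 for Chongqing over Hubei. Of the 5 identifiers 4 end in 4, the digit that in all unigenes went most often with Shanxi and Gansu.

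All 5 oleosins were called higher in Chongqing and in Gansu than in Hubei and than in Shanxi, 5 of 5 in each of these 4 pairs. Of all unigenes tested, 23.6% and 24.0% were higher in Chongqing and Gansu than in Hubei, and 23.0% and 21.2% than in Shanxi. TRINITY_DN7713_c0_g1_i1_1, matched to an oleosin of lily, had 49.2, 47.3 and 45.1 CPM in Chongqing, 57.7, 60.8 and 52.9 CPM in Gansu, 0.627, 1.23 and 1.45 CPM in Shanxi, and 2.23, 2.54 and 3.12 CPM in Hubei. Chongqing and Gansu libraries were at 45.1 CPM or more, and the others at 3.12 CPM or less. Its log2 fold changes were 4.16 ± 0.16 (adjusted p = 2.3e-10) for Chongqing over Hubei, 4.43 ± 0.17 (adjusted p = 1.42e-10) for Gansu over Hubei, 5.41 ± 0.18 (adjusted p = 6.7e-11) for Chongqing over Shanxi and 5.68 ± 0.18 (adjusted p = 5.41e-11) for Gansu over Shanxi. Oleosin 16 kDa (TRINITY_DN25440_c0_g1_i1_4, matched to a rice protein) had 11.4, 10.8 and 10.6 CPM in Chongqing, 55.3, 61.2 and 55.4 CPM in Gansu, 0 CPM in all 3 Shanxi libraries, and 0, 0.0446 and 0.213 CPM in Hubei. Gansu was highest, at -2.39 ± 0.16 (adjusted p = 5.31e-07) for Chongqing over Gansu, and relative to Shanxi, where it had no count, Chongqing was at least 255-fold higher. Over Hubei, with 6 counts in all, the fitted values were 6.86 ± 0.32 (adjusted p = 1.28e-08) for Chongqing over Hubei and 9.24 ± 0.30 (adjusted p = 5e-10) for Gansu over Hubei. They became 8.59 without Hubei replicate 3 for Chongqing over Hubei and 10.98 without Hubei replicate 3 for Gansu over Hubei. Oleosin H2 (TRINITY_DN11675_c0_g1_i1_1) had 8.1, 7.84 and 6.65 CPM in Chongqing, 8.13, 8.87 and 7.07 CPM in Gansu, 0.269, 0.0424 and 0.0881 CPM in Shanxi, and 0, 0.178 and 0 CPM in Hubei. Chongqing and Gansu overlapped, at -0.09 ± 0.34 (adjusted p = 0.886) for Chongqing over Gansu. Both lay above the rest. On the log2 scale these were 6.86 ± 0.58 (adjusted p = 4.25e-07) for Chongqing over Hubei, 6.95 ± 0.58 (adjusted p = 3.86e-07) for Gansu over Hubei, 5.78 ± 0.52 (adjusted p = 7.85e-07) for Chongqing over Shanxi and 5.87 ± 0.52 (adjusted p = 8.21e-07) for Gansu over Shanxi. Without 1 library its values were 10.41 without Hubei replicate 2 for Chongqing over Hubei, 10.50 without Hubei replicate 2 for Gansu over Hubei, 6.71 without Shanxi replicate 1 for Chongqing over Shanxi and 6.82 without Shanxi replicate 1 for Gansu over Shanxi.

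The other 2 oleosins were scarce. Oleosin 5 (TRINITY_DN3515_c0_g1_i1_1) had 0.514, 0.61 and 0.381 CPM in Chongqing, 1.02, 1.12 and 1.4 CPM in Gansu, 0 CPM in all 3 Shanxi libraries, and 0, 0 and 0.0854 CPM in Hubei. An oleosin matched to a peanut allergen (TRINITY_DN30782_c0_g1_i1_1) had 0.472, 0.305 and 0.678 CPM in Chongqing, 0.438, 0.507 and 0.0822 CPM in Gansu, 0.0448, 0 and 0 CPM in Shanxi, and 0, 0.0892 and 0 CPM in Hubei. The means of Chongqing and Gansu lay above those of Shanxi and Hubei for both, and Chongqing and Gansu were not called different from each other. For oleosin 5 their libraries did not overlap, and Chongqing was called lower than Gansu with limma at either pseudocount and with only these areas in the fit. Of the 5 oleosin identifiers 4 end in 1, the digit that in all unigenes went most often with Chongqing, and the fifth, oleosin 16 kDa, ends in 4. Each oleosin was the only member with its protein's name.

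**Figure D5:**
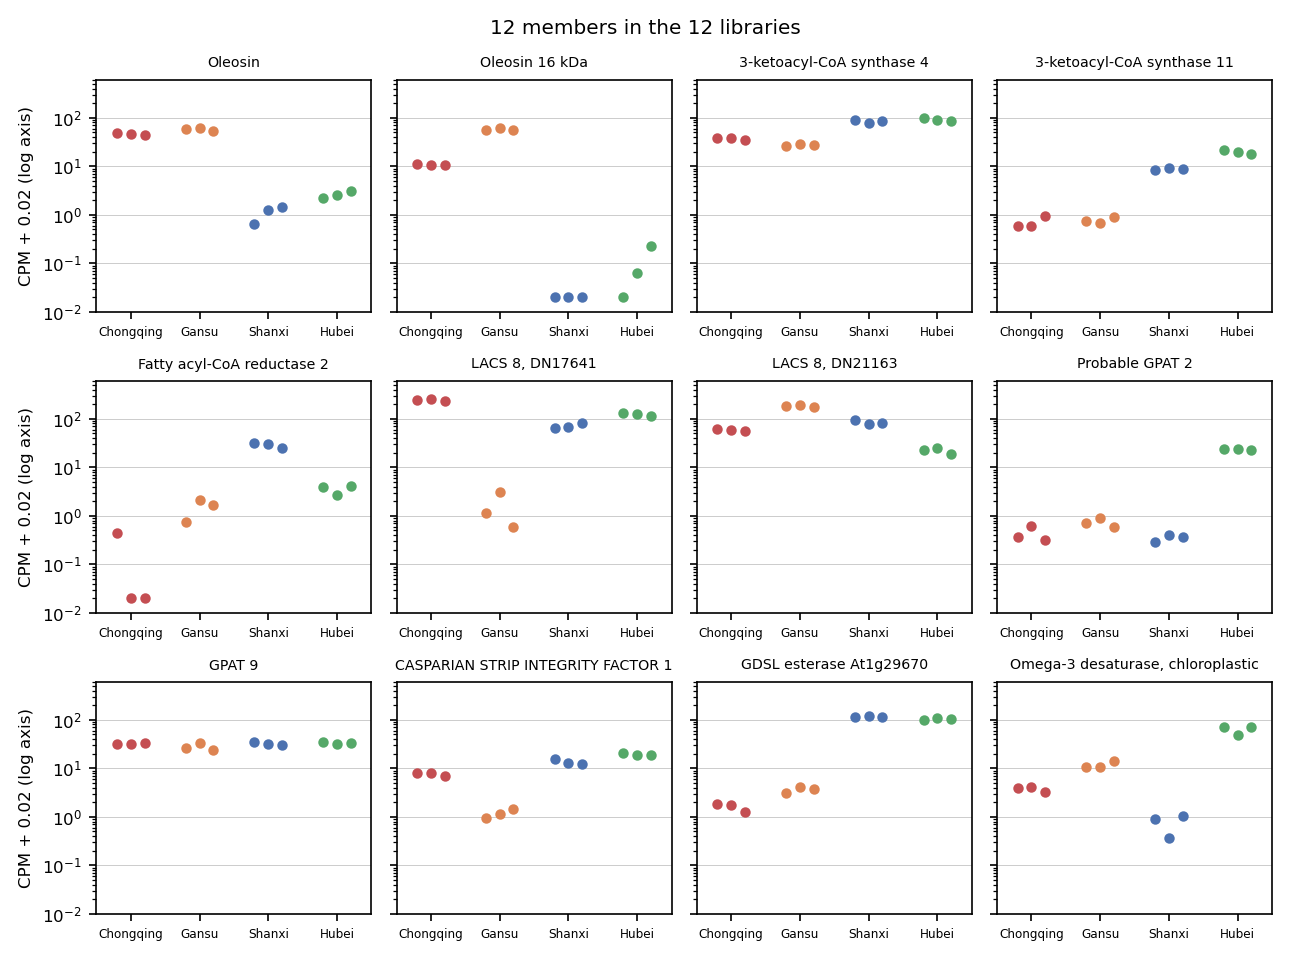
Level of 12 members in the 12 libraries on a log axis of CPM + 0.02, with 3 points per area. Both oleosins stand high in Chongqing and Gansu, acyltransferase 2 stands high in Hubei at 22.7 to 24.0 CPM, and acyltransferase 9 has overlapping libraries in all 4 areas.

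Other genes of the same pathways were taken from a list of terms for fatty acid synthesis, omega-hydroxylation, wax formation, export and regulation, which found 225 unigenes that are not members. Of these 212 were tested and 198 showed any difference, where the background was 70.4% of all unigenes tested and 83.5% of the described ones. They were 37 higher and 131 lower in Chongqing than in Hubei, 61 higher and 84 lower in Gansu than in Hubei, and 51 higher and 84 lower in Shanxi than in Hubei, with medians of -1.23, -0.23 and -0.30 log2. The backgrounds are those given for the members, and the shares for Gansu over Hubei lay close to that of described unigenes. The digit moved with these calls too: against Hubei, Chongqing was higher in 12 and lower in 8 of the 30 that end in 1, and higher in 8 and lower in 47 of the 58 that end in 2. The 8 tested acyl-ACP thioesterases were split, with 3 higher and 4 lower in Chongqing than in Hubei and 3 higher and 2 lower in Gansu than in Hubei. The most abundant of them, a plastid thioesterase that releases palmitate from fatty acid synthesis, went against the majority of the list. TRINITY_DN22057_c1_g1_i4_2 had 201, 207 and 178 CPM in Chongqing, 139, 150.1 and 137 CPM in Gansu, 46.7, 42.4 and 46.7 CPM in Shanxi, and 38.4, 27.9 and 33 CPM in Hubei. Chongqing and Gansu lay above Shanxi and Hubei. Fold changes in log2 were 2.56 ± 0.11 (adjusted p = 3.37e-10) for Chongqing over Hubei and 2.10 ± 0.10 (adjusted p = 2.27e-09) for Gansu over Hubei. In the sum over this protein they were 1.36 for Chongqing over Hubei and 1.08 for Gansu over Hubei. The 4 stearoyl-ACP desaturases were 0 higher and 3 lower in Chongqing than in Hubei. In Gansu 2 were higher and 1 lower than in Hubei, and in Shanxi 3 were higher and 1 lower.

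Delta-12 desaturases named FAD2 introduce the second double bond of linoleate in the endoplasmic reticulum, and in carrot relatives of them make acetylenic bonds of polyacetylenes. Of 21 such unigenes, all tested, 19 were lower and 0 higher in Chongqing than in Hubei, and 19 were lower and 0 higher in Chongqing than in Gansu. Among all unigenes tested, 25.9% and 19.1% were lower in these pairs. By last digit, Chongqing was lower than Hubei in 1 of 3 unigenes ending in 1, in 5 of 5 ending in 2, in 6 of 6 ending in 3 and in 7 of 7 ending in 4. TRINITY_DN24919_c1_g2_i1_3 had 7.24, 6.49 and 6.44 CPM in Chongqing, 657, 732 and 593 CPM in Gansu, 159, 155 and 157 CPM in Shanxi, and 304, 300.5 and 271 CPM in Hubei. Chongqing was lowest and Gansu highest without overlap, a log2 difference of -6.62 ± 0.10 (adjusted p = 3.48e-13) for Chongqing over Gansu. TRINITY_DN23756_c2_g3_i2_4 had 9.82, 11.3 and 9.23 CPM in Chongqing, 187, 206 and 184 CPM in Gansu, 169.6, 147 and 164 CPM in Shanxi, and 479.6, 459 and 429.7 CPM in Hubei and was lower in every area than in Hubei. The fitted log2 fold changes were -5.50 ± 0.10 (adjusted p = 3.22e-13) for Chongqing over Hubei, -1.25 ± 0.08 (adjusted p = 2.63e-08) for Gansu over Hubei and -1.51 ± 0.08 (adjusted p = 6.17e-09) for Shanxi over Hubei. By FPKM the most abundant unigene of the name, TRINITY_DN20630_c1_g10_i1_1, had 745, 771 and 678 CPM in Chongqing, 711, 808 and 661 CPM in Gansu, 919, 748 and 833 CPM in Shanxi, and 971, 866 and 758 CPM in Hubei. Its areas overlapped, and Chongqing over Hubei was -0.24 ± 0.10 (adjusted p = 0.0707), not called. It was called without Hubei replicate 3, with the replicate block and with Chongqing and Hubei alone in the fit. Summed over the unigenes of this protein, which include the one before, the values were -1.76 for Chongqing over Hubei, -0.40 for Gansu over Hubei and -0.82 for Shanxi over Hubei.

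Export genes differed by list. Of 13 ABCG transporters, relatives of those that export suberin monomers in Arabidopsis and potato, the calls were 0 higher and 10 lower in Chongqing than in Hubei and 0 higher and 6 lower in Gansu than in Hubei. Among 4 tested relatives of the ABCG transporters of the cuticle, the calls went the other way, with 3 higher and 0 lower in Chongqing than in Hubei and 1 higher and 0 lower in Gansu than in Hubei. TRINITY_DN20330_c0_g1_i2_2, ABC transporter G family member 1, had 5.44, 4.44 and 4.49 CPM in Chongqing, 2.68, 3.7 and 2.84 CPM in Gansu, 33.2, 29.7 and 31 CPM in Shanxi, and 30.1, 29.9 and 26.6 CPM in Hubei. Shanxi and Hubei overlapped and lay above the other areas. Differences came to -2.59 ± 0.13 (adjusted p = 2.03e-09) for Chongqing over Hubei, -3.23 ± 0.14 (adjusted p = 4.16e-10) for Gansu over Hubei and -2.71 ± 0.13 (adjusted p = 1.5e-09) for Chongqing over Shanxi. Summed over the unigenes of this protein the values were -2.18 for Chongqing over Hubei, -2.42 for Gansu over Hubei and -1.71 for Chongqing over Shanxi. Lipid transfer proteins (41 unigenes, 40 tested) were 7 higher and 27 lower in Chongqing than in Hubei and 8 higher and 23 lower in Gansu than in Hubei. The one named EARLI 1, TRINITY_DN12967_c0_g1_i1_3, had 3.94, 2.87 and 1.91 CPM in Chongqing, 1.75, 1.98 and 0.945 CPM in Gansu, 299, 286 and 295 CPM in Shanxi, and 606, 562 and 519 CPM in Hubei. It was at 3.94 CPM or less in every Chongqing and Gansu library. In log2 the differences were -7.59 ± 0.20 (adjusted p = 5.24e-12) for Chongqing over Hubei, -8.52 ± 0.21 (adjusted p = 4.35e-12) for Gansu over Hubei and -0.94 ± 0.14 (adjusted p = 8.85e-05) for Shanxi over Hubei. The sum over its protein gave -6.14 for Chongqing over Hubei, -4.75 for Gansu over Hubei and -0.70 for Shanxi over Hubei. The names of MYB factors of endodermis and suberin were carried by 4 tested unigenes, of which 4 were lower in Gansu and 3 lower in Chongqing than in Hubei. MYB36, which in Arabidopsis switches on Casparian strip genes, was represented by TRINITY_DN15406_c0_g2_i1_3, with 2.36, 2.18 and 2.12 CPM in Chongqing, 0.779, 1.12 and 0.986 CPM in Gansu, 4.93, 5.04 and 5.15 CPM in Shanxi, and 12.4, 12.8 and 14.2 CPM in Hubei. Hubei was highest and Gansu lowest without overlap. Tested in log2, these were -2.57 ± 0.16 (adjusted p = 2.72e-08) for Chongqing over Hubei, -3.77 ± 0.18 (adjusted p = 1.64e-09) for Gansu over Hubei and -1.38 ± 0.15 (adjusted p = 7.79e-06) for Shanxi over Hubei. Sums of its unigenes differed by -1.97 for Chongqing over Hubei, -2.39 for Gansu over Hubei and -0.91 for Shanxi over Hubei.

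WRI1, a regulator of fatty acid synthesis, was highest in Shanxi. Its unigene (TRINITY_DN17115_c0_g1_i1_4) had 8.4, 8.49 and 8.9 CPM in Chongqing, 12.3, 14.4 and 11.4 CPM in Gansu, 35.7, 32.4 and 36.8 CPM in Shanxi, and 20.7, 18.2 and 16.4 CPM in Hubei. Shanxi over Hubei was 0.92 ± 0.11 (adjusted p = 1.48e-05), and Chongqing over Shanxi -2.02 ± 0.12 (adjusted p = 9.93e-09). CER1 and CER3 turn very long chain acyl groups into wax alkanes, and of 15 unigenes with these names 12 were lower and 0 higher in Chongqing than in Shanxi. The counts were 8 higher and 5 lower in Shanxi than in Hubei. By mean level 8 of the 15 were highest in Shanxi, 4 in Gansu and 3 in Hubei, and 7 of the 8 have identifiers ending in 4. TRINITY_DN13809_c0_g1_i1_4, a CER1 unigene, had 0.686, 0.0871 and 0.254 CPM in Chongqing, 1.8, 1.77 and 2.59 CPM in Gansu, 262, 252 and 246 CPM in Shanxi, and 66.7, 64.5 and 69 CPM in Hubei. Chongqing over Shanxi was -9.50 ± 0.23 (adjusted p = 3.37e-12), or -10.51 without Chongqing replicate 1 for Chongqing over Shanxi, and -3.73 in the sum of CER1. A second CER1 unigene, TRINITY_DN21031_c0_g1_i1_1, was highest in Gansu, with 17.9, 19.7 and 15.2 CPM in Chongqing, 231, 245 and 238 CPM in Gansu, 98.6, 97.3 and 94.1 CPM in Shanxi, and 134, 125 and 121 CPM in Hubei. It differed by 0.91 ± 0.08 (adjusted p = 4.81e-07) for Gansu over Hubei, against -0.17 for Gansu over Hubei in the sum of CER1. Of the CYP86 omega-hydroxylases of suberin and cutin, 1 CYP86A unigene and 1 of 4 CYP86B1 unigenes were tested, and both were scarce. The CYP86A unigene TRINITY_DN30582_c0_g1_i1_2 had means of 0.672 CPM in Chongqing, 0.0631 CPM in Gansu, 0.596 CPM in Shanxi and 0.339 CPM in Hubei. The CYP86B1 unigene TRINITY_DN26957_c0_g1_i1_1 had means of 0.529 CPM in Chongqing, 0.0612 CPM in Gansu, 0.419 CPM in Shanxi and 0.149 CPM in Hubei. Both were called lower in Gansu than in Chongqing and than in Shanxi. Of 7 CYP94 omega-hydroxylase unigenes 6 were tested, with 2 higher and 3 lower in Chongqing than in Hubei. No unigene carried the name of a fatty alcohol caffeoyl transferase, a suberization-associated peroxidase or the suberin dirigent proteins searched for.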

How the data were processed

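RNA from 12 root libraries had been assembled de novo into unigenes and quantified, and the submitters' processing notes list RSEM, Bowtie2, featureCounts, DESeq2, Trimmomatic and FastQC. The authors deposited expected counts and FPKM per unigene with Swiss-Prot annotation. The sources used here do not say how reads shared between unigenes were assigned, or whether strand was used.

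Expected counts deposited by the authors were rounded to whole numbers and tested in R 4.3.3 with edgeR 4.0.16: filterByExpr by area, TMM scaling (factors 0.941 to 1.05), and a quasi-likelihood fit of all 12 libraries with 8 residual degrees of freedom. P-values were adjusted by Benjamini and Hochberg over 60756 unigenes, and a call needed an adjusted p under 0.05. CPM used TMM library sizes, and FPKM are as deposited by the authors. Values after ± are SD over libraries for levels. For log2 fold changes they are approximate errors, computed from the fold change and its test statistic and not taken from the fit. They are not reliable where an area has few counts. Oleosin 16 kDa, with 6 counts in Hubei, moved from 9.24 to 10.98 for Gansu over Hubei without Hubei replicate 3. That shift is larger than the error printed for it. An area at 0 counts was set to a floor of 3 counts per area, which covers counting error only. The code was run on simulated data in which far fewer unigenes were changed than were called here, and in Chongqing only. Most simulated 2-fold changes were missed, and after the first run recovery was required for larger changes only. That run therefore does not show how well calls are made in these data.

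Members and lists were chosen with earlier results of these data known, and list terms were edited after reading annotation names. Named unigenes were the 3 highest in FPKM per family, the 3 highest and 3 lowest fold changes per pair, the 6 smallest overall p-values, and the leading unigene of each protein name or pathway term. Further unigenes of a protein, and those found in 1 area, were added after their values were seen. Alternatives were other scalings and count filters, DESeq2 1.42.0, a minimum of 2-fold, limma 3.58.1 on log2(FPKM + 1) and log2(FPKM + 0.1), the replicate block, sums per protein, each library left out, and only the areas compared. No sequence of a unigene was used here.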

Additional observations from a re-analysis of the deposited data

How the results depend on the processing

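Leaving out each library in turn gave 131 to 138 members with any difference. Members called were 27 to 31 higher and 64 to 71 lower for Chongqing over Hubei, 23 to 28 higher and 68 to 75 lower for Gansu over Hubei, 33 to 40 higher and 44 to 49 lower for Shanxi over Hubei, 35 to 39 higher and 33 to 40 lower for Chongqing over Gansu, 31 to 36 higher and 54 to 66 lower for Chongqing over Shanxi, and 31 to 35 higher and 56 to 64 lower for Gansu over Shanxi.

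With counts summed per protein 67 proteins differed, with 20 higher and 39 lower in Chongqing than in Hubei, 17 and 38 in Gansu than in Hubei, 19 and 24 in Shanxi than in Hubei, 19 and 16 in Chongqing than in Gansu, 20 and 29 in Chongqing than in Shanxi, and 19 and 30 in Gansu than in Shanxi. These counts are lower because sums give fewer features. Directions of single unigenes reversed in these sums. For reductase 2, DN20532 became -0.387 for Chongqing over Hubei, -0.379 for Gansu over Hubei and -1.371 for Chongqing over Shanxi, and DN16402 became 0.984 for Shanxi over Hubei. For acyl-CoA synthetase 8, DN17641 became 0.307 for Gansu over Hubei, 0.057 for Shanxi over Hubei and 0.25 for Gansu over Shanxi, and DN21163 became 0.7 for Chongqing over Gansu. The thioesterase DN22057 became -0.123 for Shanxi over Hubei, and CER1 DN21031 became -0.169 for Gansu over Hubei. Under a filter of at least 50 counts in 3 libraries 98 members showed a difference, since fewer were tested. Under the other count filters and scalings, DESeq2, limma and the minimum of 2-fold, the counts of calls stayed within 1.5 times of those reported.

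The replicate numbers did not pair the samples, since same-numbered samples of different areas deviated with correlations of -0.134 to 0.116. With the replicate number as a block 129 members showed any difference, with 30 higher and 66 lower in Chongqing than in Hubei, 28 and 70 in Gansu than in Hubei, and 35 and 45 in Shanxi than in Hubei.

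At this depth, 41 of the tested members had an area with 3 counts or fewer, and their fitted fold changes depend on the prior count. The spread between replicates covers 3 libraries per area.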
